A study of Mus musculus with 6 samples.

Results

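Conventional dendritic cells were examined here among CD11b+ cells of the mouse brain in a study of glioma. The cells were chosen by their RNA in all 3 pools of the series, from cells with at least 500 RNA UMIs (unique molecular identifiers, 1 per captured molecule), under 10% mitochondrial UMIs and 1 hashtag holding at least 80% of the hashtag UMIs. A dendritic cell had at least 4 UMIs of Ccl17, Mgl2, Cd209a and Flt3 summed, from at least 2 of these genes, and also at most 2 UMIs of Ccr7 and Ccl22, at most 1 of P2ry12, Tmem119, Siglech and Gpr34, and at most 1 of Nkg7. These limits left 158 dendritic cells of 22157 eligible cells, or 0.713% (95% exact binomial interval 0.607% to 0.833%). Dendritic cell here means a cell that met this rule, so the share is not that of all conventional dendritic cells. The deposited matrices held 36755 cell barcodes in all.

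The samples came from C57BL/6 mice aged 12 weeks that were perfused with cold saline. Each pool joined 6 hashed samples in 1 run: tumor-bearing females and males at 14 days and at 21 days after implantation, for which the tumor-bearing hemisphere was dissociated, and female and male controls, for which the whole brain was used. With 3 samples per group this makes 18 hashed samples. RNA and antibody tags of the same cells were read with the 10x 3' v3 chemistry. The labels used here do not tie a hashtag to a sex, a tumor or a day, so no group of mice was compared with another, and a sample is called by its pool and hashtag; a hashtag number that recurs in another pool was not taken as the same group. How many animals stand behind a hashed sample, and which glioma cells were implanted, were not given in the labels used here.

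Conventional dendritic cells arise in the bone marrow from progenitors that depend on the receptor Flt3, take up antigen in tissues, display it on MHC class II and prime T cells in the lymph node. One branch, cDC1, relies on Irf8 and Batf3 and presents antigen on MHC class I to CD8 T cells; the other, cDC2, relies on Irf4 and carries lectins such as Clec10a and Cd209a. In the brain they sit mainly in the meninges and choroid plexus, are scarce in healthy parenchyma, and enter tumors from the blood.

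Of 268 cells with enough UMIs from at least 2 of the 4 choosing genes, 77 fell out for Ccr7 or Ccl22, which mark mature migrating dendritic cells, 47 for microglial genes and 2 for Nkg7, a gene of cytotoxic lymphocytes; a cell could fail more than 1 limit. Without the hashtag limit the rule gave 163 cells. The summed level of the 4 genes had a median of 15 UMIs and reached 145. The 12 cells just inside the limit, with 4 UMIs, held Clec10a in 58.3% and Kmo in 66.7% of cells, with 12122 CPM of H2-Ab1 when summed (CPM is the UMIs of a gene over all RNA UMIs of the summed cells, times 1000000). The 13 cells just outside, with 3 UMIs, held Clec10a in 53.8% and Kmo in 46.2% of cells, with 13078 CPM of H2-Ab1. Other genes differed at the limit: Itgax was in 83.3% of cells inside and 38.5% outside, C1qa in 50% and 84.6%, and Zbtb46 in 50% and 23.1%. Dpp4 was in 41.7% and 46.2%. The 104 cells with over 10 UMIs held Clec10a in 60.6%, Kmo in 73.1% and Dpp4 in 41.3% of cells, but Zbtb46 in only 15.4%.

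Pool 1 gave 42 dendritic cells, pool 2 gave 105 and pool 3 gave 11. Eligible cells were 78.3% of the barcodes in pool 1, 85.0% in pool 2 and 16% in pool 3. Pool 1 held 74848339 RNA UMIs, pool 2 107880924 and pool 3 71510276. The pools shared 32, 50 and 53 barcodes in their 3 pairings, and 1 of these barcodes was a dendritic cell. Dendritic cells had a median of 12400.5 RNA UMIs, against 6703 in monocytes, 9827 in macrophages and 5171 in microglia, and 13 of them, all in pool 2, had over 20000. The median depth of dendritic cells was 7749 UMIs in pool 1, 13973 in pool 2 and 11893 in pool 3.

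Dendritic cells were found in 14 of the 18 hashed samples. The share was highest in pool 2 hashtag 3, with 41 cells or 2.5% of eligible cells (95% exact interval 1.80% to 3.38%). Pool 3 hashtag 4 followed with 6 cells or 1.73% (0.639% to 3.74%), then pool 2 hashtag 6 with 26 cells or 1.43% (0.936% to 2.09%) and pool 2 hashtag 5 with 22 cells or 1.31% (0.822% to 1.97%); these 4 intervals overlap one another. In pool 1 the shares ran up to 0.737%, with 15 cells in hashtag 5. In 4 samples no cell met the rule: pool 1 hashtag 2, where 0 of 1937 cells allows a share of up to 0.155%, and hashtags 1, 2 and 5 of pool 3, where the shallower sampling allows up to 2.68%, 1.26% and 0.850%, each limit being that of 3 counts. These intervals and limits cover counting error only. The order of samples turned with the limits: pool 2 hashtag 1 was at 0.862% here, with 6 of 696 cells. At a hashtag limit of 90% it stood highest, with 6 of 156 cells (3.85%) against 41 of 1371 (2.99%) in pool 2 hashtag 3. After thinning each cell to 2000 UMIs it again stood highest, with 4 of 671 cells (0.596%) against 7 of 1591 (0.440%). These turns rest on few cells, and no intervals were computed for them. Set against cells that were not microglia, the highest shares were 6 of 35 cells in pool 2 hashtag 1 (17.1%), 6 of 55 in pool 2 hashtag 2 (10.9%) and 3 of 33 in pool 3 hashtag 3 (9.09%), on few cells each. The 6 cells of pool 2 hashtag 2 were the richest in macrophage RNA among samples with at least 5 dendritic cells. Their MHCII tag, relative to the other tags, was the lowest of these samples, as given below.

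**Figure D1:**
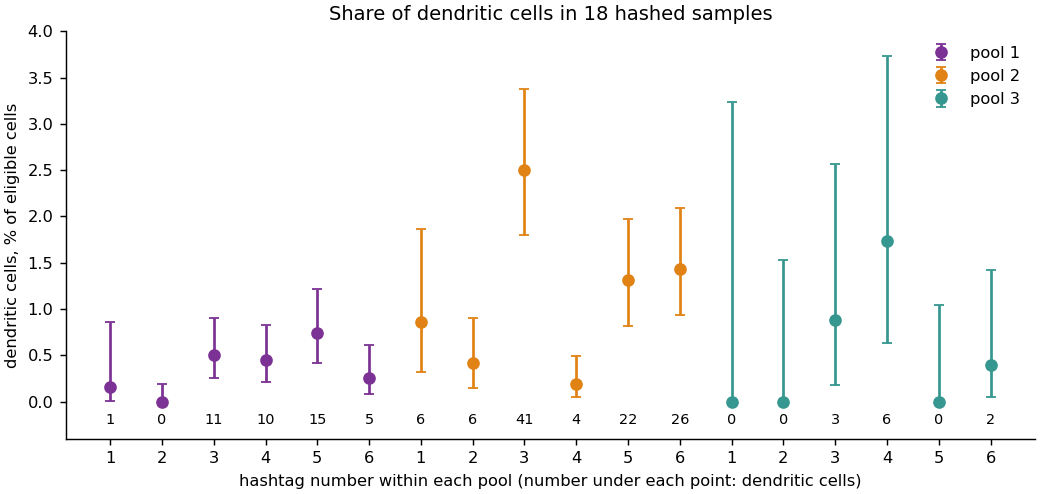
Share of dendritic cells in each hashed sample, in percent of eligible cells (y axis), by hashtag number within each pool (x axis). Points are shares and bars are 95% exact binomial intervals; numbers under the points are dendritic cells. Pool 2 hashtag 3 stands highest at 2.5%, and 4 samples are at 0.

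The 4 choosing genes were seldom all found in 1 cell, so that the chosen cells are a mixture of pairings; these are the values that chose the cells and carry no test. Ccl17, a chemokine that draws CCR4-bearing T cells, was detected in 64.6% of the cells, Mgl2, a C-type lectin, in 67.1%, Cd209a, a mouse relative of the lectin DC-SIGN, in 46.8%, and Flt3 in 44.9%. The most common pairing was Ccl17 with Mgl2 and neither of the others, in 47 cells. Mgl2 with Cd209a was found in 23 cells, Cd209a with Flt3 in 22, and all 4 genes in 3.

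Genes that the rule did not use were looked at next, though those that go with the choosing genes are not free of the choice. Monocytes and macrophages, defined below, had at most 1 UMI of the choosing genes. Clec10a, a galactose-binding lectin of cDC2, was detected in 59.5% of dendritic cells, against 7.93% of monocytes, 6.62% of macrophages and 1.23% of microglia. When every cell was thinned to 2000 UMIs these shares were 29.3%, 2.09%, 1.89% and 0.33%. Kmo, an enzyme of tryptophan breakdown, was detected in 68.4% of dendritic cells, and in 8.04% of monocytes, 1.18% of macrophages and 0.72% of microglia. Zbtb46, a transcription factor of the conventional dendritic lineage, was detected in 19.6% of dendritic cells, against 0.84% of monocytes and 0.83% of microglia; macrophages had 0 of 1103 cells with it. Summed per sample, Zbtb46 stood at 32.7, 38.4, 24.4, 8.53, 19.3 and 35.3 CPM in dendritic cells and between 0 and 3.12 CPM in monocytes, without overlap, but its counts were too low for the filter of the test. Dpp4, the peptidase CD26, was found in 39.2% of dendritic cells, 5.11% of monocytes and 1.18% of macrophages. Microglia served here as the background, and the shares in dendritic cells lay above it for each of these genes.

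Genes that mark the cDC1 branch were found in few of the chosen cells. The rule asked for at least 2 of the choosing genes, so a cell with Flt3 and none of the others could not enter. Whether the rule left out cDC1 cells was not tested. The counts therefore do not tell how common cDC1 cells were among all conventional dendritic cells. Xcr1, the chemokine receptor of cDC1, had a UMI in 2 cells, both in pool 2 hashtag 6, and Clec9a, the cDC1 receptor for dead cells, in 12 (7.59%). Irf4 was detected in 25.9% of the cells, and Cd209d in 12.7%. Itgae, the integrin CD103, was found in 20.3%, and Btla, an inhibitory receptor of dendritic and lymphoid cells, in 38.6%.

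Genes of other cells were present too. Fcgr1, the high-affinity Fc receptor of monocytes and macrophages, had a UMI in 77.2% of dendritic cells, 90.3% of monocytes and 82.8% of macrophages. Ly6c2 and Plac8 together reached 4 UMIs in 119 of the 158 cells (75.3%), the level used to choose monocytes, and Ms4a7, C1qc and Gpnmb together reached 4 UMIs in 29 (18.4%), the level used for macrophages. The rule set no upper limit on these genes, and a dendritic cell was never counted in either of the other classes. Cells derived from monocytes, or macrophages with some of the choosing genes, could not be told apart among the 158 cells. Cd3e, Cd79a, Ncr1 and Ly6d, defining genes of T cells, B cells, NK cells and plasmacytoid dendritic cells, had a UMI in 0 of 158 cells each, which allows up to 1.90% of cells with a UMI and sets no limit on cells that express the gene. Other genes of their lists were present. Of dendritic cells 25.3% held at least 2 UMIs of the B cell list, against 6.68% of monocytes, 2.72% of macrophages and 39.2% of microglia. For the plasmacytoid list these shares were 98.7%, 99.2%, 96.9% and 94.5%, and for the NK list 72.2%, 72.9%, 66.9% and 15.0%. No dendritic cell held 2 UMIs of the T cell list. Depth differed between the classes. Over the 6 samples tested below, the neutrophil list summed to between 0 and 32.1 CPM in dendritic cells, against 90.2 to 3691 CPM in monocytes and 41.7 to 98.8 CPM in macrophages.

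To place the cells, their summed RNA was compared with that of 1916 monocytes (at least 4 UMIs of Ly6c2 and Plac8, with both found, and few macrophage genes) and 1103 macrophages (at least 4 UMIs of Ms4a7, C1qc and Gpnmb from 2 of them, and few monocyte genes), both with at most 1 UMI of the 4 choosing genes. The 6 hashed samples with at least 10 cells of each class entered: hashtags 3, 4 and 5 of pool 1 and hashtags 3, 5 and 6 of pool 2, and values per sample are given in that order. They held 11, 10, 15, 41, 22 and 26 dendritic cells. Pool 3 had no such sample. Each class was summed within a sample and tested with edgeR's quasi-likelihood test, with the sample as a block and Benjamini-Hochberg adjustment over all genes tested; a gene passed at an adjusted p under 0.05. The genes used to choose cells were left out, but genes that go with them in single cells are not free of that choice. The monocyte and macrophage comparisons share their dendritic cell counts. Against monocytes 1816 of 5548 genes passed (32.7%), 14.7% of those tested being higher and 18.0% lower in dendritic cells. Against macrophages 968 of 3049 genes passed (31.7%), with 16.9% of those tested higher in dendritic cells and 14.9% lower. Without pool 2, with 3 samples left, 756 of 5731 genes passed against monocytes, 332 higher and 424 lower. Against macrophages 304 of 1651 then passed, 170 higher and 134 lower. List counts given below for pool 1 alone stand beside these. With all 6 samples the median log2 change of all genes tested was -0.03 against monocytes and -0.01 against macrophages.

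Genes of MHC class II presentation rose as a group in dendritic cells over both other classes. Of the 13 genes listed, 11 could be tested against monocytes, and 10 rose and 1 fell, with a median log2 change of 1.28; against macrophages 9 of 10 rose and 1 fell, with a median of 1.11 (5 of 9 rose in the samples of pool 1 alone). The steepest changes were in the accessory genes. H2-Oa, a chain of the H2-O molecule that restrains peptide loading, stood at 349, 297, 122, 179, 363 and 333 CPM in dendritic cells, at 36.9, 28.6, 29.4, 14.1, 20.2 and 22.4 CPM in monocytes, and at 75.1, 16.5, 10.1, 6.3, 19.2 and 5.1 CPM in macrophages. Every dendritic cell value lay above every value of the other 2 classes. The log2 change was 3.47 ± 0.22 (SE, n = 6) against monocytes (edgeR adjusted p = 2.5e-09) and 4.50 ± 0.36 against macrophages (edgeR adjusted p = 1.6e-06). H2-Ob, its partner chain, averaged 67.1 CPM in dendritic cells and 7.48 CPM in monocytes, a log2 change of 3.15 ± 0.25.

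H2-DMb2, a chain of the peptide exchange factor H2-DM, had 185, 326, 171, 305, 408 and 361 CPM in dendritic cells, against 33.3, 17.4, 33.2, 16.4, 43.3 and 44.9 CPM in monocytes and 50.1, 14.8, 20.1, 25.1, 27.2 and 27.3 CPM in macrophages. Here too the classes did not overlap, with log2 changes of 3.28 ± 0.22 over monocytes and 3.76 ± 0.24 over macrophages. H2-Ab1, the beta chain of the presenting molecule itself, was higher by less: 13598, 9209, 11893, 13224, 14266 and 12960 CPM in dendritic cells, 5587, 5121, 4241, 2869, 7105 and 6946 CPM in monocytes, and 8852, 9140, 5354, 4077, 7556 and 7242 CPM in macrophages. The lowest dendritic cell sample lay just above the highest macrophage sample. Its log2 change was 1.31 ± 0.12 against monocytes and 0.93 ± 0.15 against macrophages, the second being 0.63 and not passing without pool 2 (edgeR adjusted p = 0.073). H2-Aa, the alpha chain, averaged 10550 ± 1494 CPM in dendritic cells, 4557 ± 1326 CPM in monocytes and 5240 ± 1737 CPM in macrophages (SD, n = 6 each). Cd74, the invariant chain that escorts class II, averaged 30526 ± 7432 CPM in dendritic cells and 13990 ± 3421 CPM in monocytes. Ciita, the activator that switches class II genes on, rose by a log2 of 0.82 ± 0.21 over monocytes (edgeR adjusted p = 0.0051), with 1 of 6 samples going the other way, and by 1.74 ± 0.27 over macrophages; without pool 2 the change over monocytes was 0.24 (edgeR adjusted p = 0.73). The listed gene that fell was Ctss, the cathepsin that trims the invariant chain, at 2849 ± 524 CPM in dendritic cells, 5556 ± 915 CPM in monocytes and 7781 ± 1075 CPM in macrophages.

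Class II genes share a promoter module, in which the part called the Y box is the letters TGATTGG or their complement. The 120 bases before the transcript start are shown for 2 presenting chains and 2 accessory chains, because these genes moved together above; they are RefSeq sequences on build GRCm38.p6, 5′ to 3′ on the strand of the gene, with TGATTGG in capitals. H2-Aa lies at chr17:34287824-34287943 on the minus strand, H2-Eb1 at chr17:34305747-34305866, H2-DMb2 at chr17:34145129-34145248 and H2-Oa at chr17:34092259-34092378, all 3 on the plus strand.
H2-Aa: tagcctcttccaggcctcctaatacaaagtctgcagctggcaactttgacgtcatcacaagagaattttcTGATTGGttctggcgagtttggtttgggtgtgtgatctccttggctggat
H2-Eb1: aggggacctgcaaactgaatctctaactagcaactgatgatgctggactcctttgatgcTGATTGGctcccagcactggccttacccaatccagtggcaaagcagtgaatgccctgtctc
H2-DMb2: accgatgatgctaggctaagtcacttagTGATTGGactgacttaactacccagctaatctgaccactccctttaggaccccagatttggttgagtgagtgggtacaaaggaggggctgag
H2-Oa: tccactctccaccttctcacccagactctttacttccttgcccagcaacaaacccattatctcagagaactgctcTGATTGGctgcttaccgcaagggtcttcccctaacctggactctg
The motif began 50 bases before the start in H2-Aa, 61 in H2-Eb1, 92 in H2-DMb2 and 45 in H2-Oa. Searched on both strands, it was in the 120 bases before the start of 7 of the 10 class II list genes with a promoter entry. Over whole entries of 300 bases, 250 of them before the start, it was in the same 7 genes. In that wider window 2568 of all 32851 promoters held it (7.82%). H2-DMa, which also rose over monocytes, by a log2 of 0.65, has no match in its window. A match of letters is a description of the sequence and not a measured site.

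The list of core dendritic cell genes went the same way. Of 32 listed, 22 could be tested against monocytes, and 15 rose and 2 fell, with a median log2 change of 1.27; against macrophages 13 of 17 rose, with a median of 1.72 (8 of 13 in the samples of pool 1 alone, and 22 of 25 in those of pool 2 alone). The list holds genes that passed the filter partly through the dendritic cells themselves, so the counts describe the genes tested and not all listed. Clec10a stood at 240, 700, 772, 266, 80.3 and 156 CPM in dendritic cells, at 9.7, 32.9, 32.3, 26.5, 10.8 and 9.5 CPM in monocytes and at 16.7, 6.6, 15.1, 43.8, 10.2 and 16.4 CPM in macrophages. All 6 dendritic cell samples were above the others, and among themselves they spread widely, from 80.3 to 772 CPM. Its log2 change was 4.04 ± 0.22 over monocytes and 4.26 ± 0.45 over macrophages (edgeR adjusted p = 6.5e-10 and 1.5e-05). Kmo had 98.1, 95.9, 48.7, 172, 180 and 162 CPM in dendritic cells and 8.12, 11.2, 17.9, 22.6, 21.1 and 27.2 CPM in monocytes, a log2 change of 2.83 ± 0.22; in macrophages 5 of 6 samples had none.

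Other core genes rose over monocytes. P2ry10, a receptor for lysophospholipids, averaged 93.0 CPM in dendritic cells and 9.92 CPM in monocytes, Spint2, a protease inhibitor, 59.5 and 7.55 CPM, and Ckb, a creatine kinase, 281 and 45.4 CPM. Bcl11a, a transcription factor of lymphoid and dendritic lineages, averaged 51.3 CPM in dendritic cells and 11.3 CPM in monocytes, and had no UMI in the dendritic cells of pool 1 hashtag 3. Itgax, the integrin CD11c, averaged 167 ± 91.8 CPM in dendritic cells and 47.3 ± 33.2 CPM in monocytes, with a log2 change of 1.89 ± 0.21. The 2 listed genes that fell were Ass1, an enzyme of arginine synthesis (409 against 717 CPM), and Pstpip1, an adaptor of the actin skeleton (48.8 against 75.5 CPM, edgeR adjusted p = 0.034, which did not pass with DESeq2, adjusted p = 0.073, or without either pool). Over macrophages the rise of Napsa, an aspartic protease, was 3.41 ± 0.20 on the log2 scale, that of Traf1, a signalling adaptor, 3.34, and that of Itgb7, an integrin chain of homing leukocytes, 2.39.

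Genes of the branches were mixed. Of 12 cDC2 genes tested against monocytes 5 rose and 4 fell, and the 4 falls no longer passed without pool 2. Among them Ltb, the lymphotoxin beta chain, averaged 82.6 CPM in dendritic cells and 10.4 CPM in monocytes, Il1r2, a decoy receptor for interleukin 1, 222 and 83.8 CPM, and Sirpa, a receptor for CD47, fell by 0.93 on the log2 scale. Of 7 cDC1 genes tested 2 rose and 3 fell, and these falls too no longer passed without pool 2: Wdfy4, needed for cross-presentation, rose by 1.88 and Batf3 by 0.99, while Irf8, which monocytes use as well, was at 253 ± 79.9 CPM in dendritic cells and 396 ± 91.4 CPM in monocytes. Against macrophages Batf3 rose by 1.72, with an edgeR adjusted p of 0.052 without pool 2.

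Receptors known from NK cells were among the genes with the largest rise. Klrd1, the chain CD94, had 120, 259, 252, 432, 145 and 310 CPM in dendritic cells, against 10.1, 9.3, 6.8, 3.1, 14.7 and 41.3 CPM in monocytes; the classes did not overlap and the log2 change was 4.26 ± 0.34 (edgeR adjusted p = 4e-08). In macrophages it had 2 UMIs in all 6 samples, against 490 in dendritic cells, a ratio of 808 per UMI of library (95% exact counting interval 223 to 6693). Klrk1, the receptor NKG2D, averaged 281 CPM in dendritic cells, 114 CPM in monocytes and 19.2 CPM in macrophages, and was detected in 73.4% of dendritic cells. Gzma, a granule protease of NK and T cells, had a UMI in 2.53% of dendritic cells, and Nkg7 was limited by the rule. The NK list, which includes Ccl5, summed to between 473 and 3021 CPM in dendritic cells (median 997), against 1389 to 6453 CPM in monocytes (median 3477), and 5 of its 10 genes had no UMI in dendritic cells.

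Interferon-response genes lay between the other 2 classes. Of 22 tested against monocytes, 21 fell, with a median log2 change of -1.17; of 20 tested against macrophages, 11 rose and 1 fell, with a median of 0.61. Isg15, a ubiquitin-like protein induced by interferon, was at 1908, 1113, 1885, 1473, 620 and 702 CPM in dendritic cells, at 3333, 3956, 4167, 4609, 2249 and 2161 CPM in monocytes and at 551, 583, 935, 695, 496 and 237 CPM in macrophages. In each of the 6 samples dendritic cells had less than monocytes and more than macrophages. The log2 change was -1.46 ± 0.13 against monocytes (edgeR adjusted p = 9.9e-08) and 1.16 ± 0.17 against macrophages (edgeR adjusted p = 0.00024). Rsad2, the antiviral viperin, fell by 1.73 and Irf7, which amplifies interferon genes, by 1.44 against monocytes. Isg20, a ribonuclease, rose by 2.70 and Ifit3, which binds viral RNA, by 1.74 against macrophages, the second not passing without pool 2 (edgeR adjusted p = 0.088); Bst2, the tethering protein of enveloped viruses, fell by 0.65, but by 0.38 without pool 1 (edgeR adjusted p = 0.083). In the 3 samples of pool 1 alone, 13 of 22 genes of the list fell against monocytes and 6 rose against macrophages.

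MHC class I presentation did not follow class II. Of its 17 genes, 12 fell against monocytes by the edgeR test, with a median log2 change of -0.50; with no replicate block 7 fell, H2-K1 not among them (edgeR adjusted p = 0.065). The class I heavy chains H2-K1 and H2-D1 fell by 0.49 and 0.48, B2m, their light chain, by 0.67, and Tapbp, the loading factor tapasin, by 0.76. Against macrophages 5 rose and 3 fell, with a median of 0.02, and the 5 did not pass in the samples of pool 1 alone; Psmb8, a subunit of the immunoproteasome, rose by 0.61 and Tap1, the peptide transporter, by 0.57, while B2m fell by 0.73. H2-K1 and H2-D1, H2-DMb1 and H2-DMb2, and Ifit3 and Ifit3b are near copies of each other, so that counting may have split or dropped reads between them.

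Costimulatory and inhibitory genes moved in both directions. Of 12 tested against monocytes, 4 rose and 4 fell (2 each way in the samples of pool 1 alone). Tnfsf9, the ligand 4-1BBL, averaged 96.1 ± 46.4 CPM in dendritic cells and 26.6 ± 11 CPM in monocytes, a log2 change of 1.72 ± 0.27, and rose by 2.5 over macrophages. Pdcd1lg2, the ligand PD-L2, rose by 1.02 over monocytes, a call lost without pool 2 (0.83, edgeR adjusted p = 0.16) and with no replicate block (0.86, edgeR adjusted p = 0.18). Cd274, the ligand PD-L1, averaged 88.5 ± 31.9 CPM in dendritic cells and 177 ± 37.9 CPM in monocytes and fell by 0.95 on the log2 scale (edgeR adjusted p = 0.00034). Vsir, the checkpoint VISTA, fell by 1.05 (0.64 and not passing without pool 2) and Lgals9, galectin-9, by 1.20. Cd40 fell by 0.61 against monocytes (edgeR adjusted p = 0.04) and rose by 0.87 against macrophages (edgeR adjusted p = 0.031); neither call held with no replicate block (adjusted p = 0.12 and 0.053) or without pool 2, where the change was -0.06 against monocytes and 1.10 against macrophages.

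Receptors for migration, microbial products and antibodies were mostly lower in dendritic cells than in monocytes. Of 6 chemokine receptors tested against monocytes 5 fell and 1 rose, and 3 fell in the samples of pool 1 alone. Ccr2, through which monocytes leave the marrow, stood at 87.2, 259, 228, 138, 99.6 and 70.7 CPM in dendritic cells and at 396, 438, 519, 294, 518 and 621 CPM in monocytes, without overlap; the log2 change was -1.74 ± 0.23. Against macrophages, at 112 ± 60.6 CPM, its change of 0.51 ± 0.31 did not pass (edgeR adjusted p = 0.24). The riser was Gpr183, an oxysterol receptor that positions cDC2 in the mouse spleen, at 126 ± 65.3 CPM in dendritic cells and 62.8 ± 29.4 CPM in monocytes (log2 change 1.08 ± 0.24), and without pool 2 its change was 0.59 (edgeR adjusted p = 0.45). Of 6 chemokine receptors tested against macrophages 2 fell and 1 rose. Of 17 pattern recognition receptors 11 fell against monocytes by the edgeR test, and 5 in the samples of pool 1 alone. Among the 11 were Clec4e, the receptor Mincle (-5.35), Tlr7 (-3.31, edgeR adjusted p = 0.069 without pool 2), Tlr2 (-2.36) and Cd14 (-2.23). Against macrophages 5 of 10 fell and 1 rose. Fcgr1 had 284, 288, 431, 341, 215 and 204 CPM in dendritic cells and 720, 741, 912, 1071, 639 and 639 CPM in monocytes, a log2 change of -1.44 ± 0.12. In the Fc and complement list 10 of 12 genes fell and 2 rose against monocytes; against macrophages 9 of 11 fell and 1 rose, with 5 of 9 falling in pool 1 alone.

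Cytokine and chemokine genes were also lower than in monocytes, with 13 of 19 falling by the edgeR test. Ccl5, a T cell attractant, averaged 920 ± 967 CPM in dendritic cells and 3809 ± 1957 CPM in monocytes (log2 change -2.30), and Il18 fell by 2.63. Against macrophages 7 of 18 fell (3 of 14 in pool 1 alone), among them Ccl7 (-4.69), Ccl12 (-3.20) and Cxcl2 (-2.89), and 1 rose. That one was Cxcl10, a chemokine induced by interferon (log2 change 1.33 ± 0.46, edgeR adjusted p = 0.042), whose change was 0.48 without pool 1 (edgeR adjusted p = 0.6) and turned to -0.15 in the 2 samples with at least 20 cells of each class.

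The lists nearest to the genes that chose the other classes were lower in dendritic cells, a direction that the choice of cells largely sets. The monocyte list had 18 of 20 genes lower than in monocytes, with a median log2 change of -2.31. Chil3, a chitinase-like protein of inflammatory monocytes, averaged 8.35 CPM in dendritic cells and 723 CPM in monocytes, and Lyz2, lysozyme, 2695 ± 892 CPM and 13208 ± 1590 CPM. Vcan, the proteoglycan versican, had 0 UMIs in dendritic cells and 388 in monocytes, which makes it at least 19.7-fold lower, taking 3 counts over the group as the floor. Inhba, an activin chain, had 1 UMI in dendritic cells and 928 in monocytes, a ratio of 141 in favour of monocytes (95% exact counting interval 25.3 to 5589). Slpi, a protease inhibitor (-6.59), Thbs1, thrombospondin (-5.62), Arg1, arginase (-4.96), and Hp, haptoglobin (-4.89), were lower on the log2 scale too.

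Lysosomal and lipid genes fell against both classes: 18 of 22 against monocytes and all 19 tested against macrophages by the edgeR test, with medians of -1.19 and -1.60 (12 of 15 against macrophages in pool 1 alone). Apoe, the carrier of cholesterol, averaged 742 ± 558 CPM in dendritic cells, 4114 ± 940 CPM in monocytes and 18604 ± 6504 CPM in macrophages. Ctsb, a cathepsin, averaged 261 ± 42.1 CPM in dendritic cells, 1008 ± 131 CPM in monocytes and 2908 ± 537 CPM in macrophages, with log2 changes of -1.95 ± 0.14 and -3.44 ± 0.14. Trem2, a lipid-sensing receptor, averaged 34.6 ± 23.7 CPM in dendritic cells and 671 ± 139 CPM in macrophages.

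The macrophage list had 22 of 25 genes lower and 1 higher than in macrophages, and 19 of 24 lower and 4 higher than in monocytes. C1qa, a chain of complement C1q, was one of the 4: dendritic cells had 207, 76.7, 1186, 399, 627 and 1085 CPM, monocytes 65.3, 96.2, 119, 58.6, 76.7 and 74.4 CPM, and macrophages 9536, 5820, 6430, 5261, 5016 and 5274 CPM. In proportion to their level the values of dendritic cells spread more widely than those of either other class, and 5 of 6 samples were above monocytes. Monocytes were chosen with at most 2 UMIs of Ms4a7, C1qc and Gpnmb and dendritic cells without such a limit; the part of that limit in this difference was not tested.

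Among the genes that stood out over macrophages, several are known from monocytes. Ifitm6, an interferon-induced membrane protein, had 120, 537, 138, 220, 164 and 126 CPM in dendritic cells, 267, 268, 249, 241, 154 and 208 CPM in monocytes and 8.34, 7.41, 5.03, 6.27, 2.26 and 0.36 CPM in macrophages. S100a4, a calcium-binding protein, averaged 1444 ± 435 CPM in dendritic cells and 66.6 ± 103 CPM in macrophages. Cbfa2t3, a transcriptional repressor of blood progenitors, had 229, 192, 138, 162, 164 and 187 CPM in dendritic cells and 16.7, 2.47, 0, 0, 5.66 and 5.10 CPM in macrophages, with a log2 change of 5.32 ± 0.28. Since macrophages were chosen with few UMIs of Ly6c2 and Plac8, genes that go with these belong to the choice. Arg1 was at 3.54 CPM in dendritic cells and 878 CPM in macrophages (log2 change -6.84 ± 0.35).

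**Figure D2:**
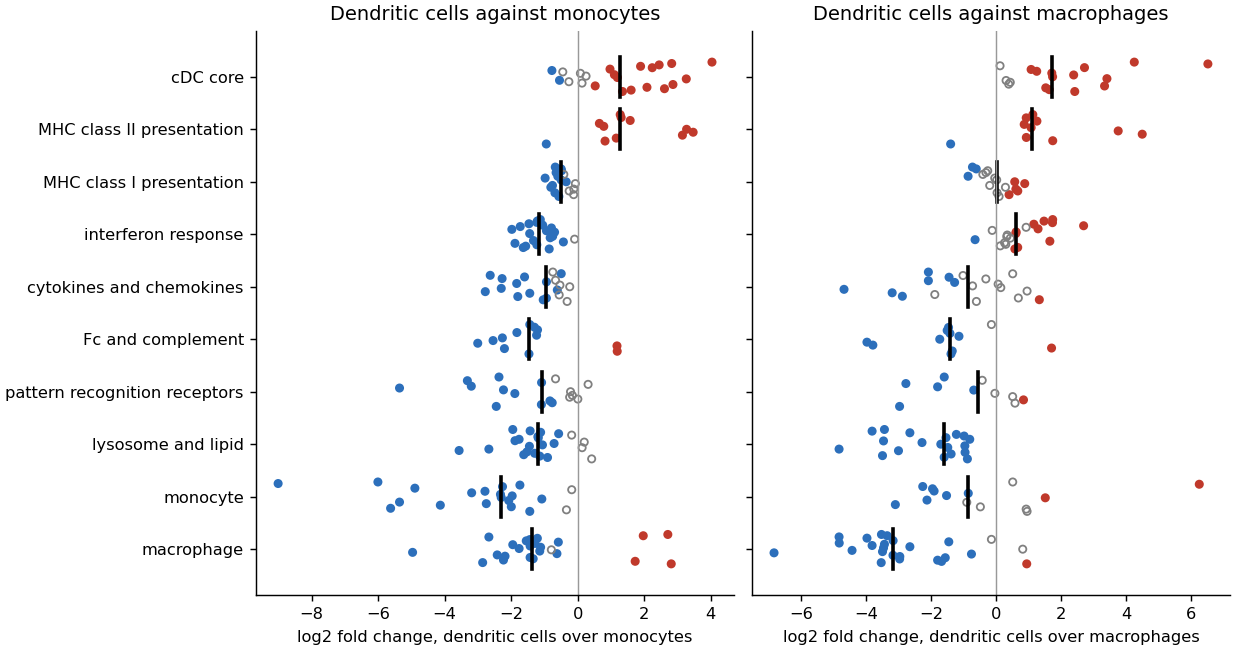
Log2 fold changes of dendritic cells over monocytes (left) and over macrophages (right) for the tested genes of 10 lists, 1 point per gene. Filled points passed the test at an adjusted p under 0.05 (red higher, blue lower), open points did not, and black bars are medians. Class II and core dendritic cell genes lie to the right in both panels, and interferon genes lie left in the first and mostly right in the second.

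The surface proteins were read by antibody tags, which the rule did not use. To each tag's UMIs 1 was added and the natural log taken; from it the mean over the 10 tags shared by the pools was subtracted, which gives a centred log ratio, averaged over cells. A difference within each of the 6 samples was tested by an exact two-sided sign permutation, whose smallest p is 0.0312 and whose smallest adjusted p over 20 tests was 0.0481. MHCII was at 2.74, 2.34, 2.95, 2.12, 2.36 and 2.42 in dendritic cells, at 0.04, 0.35, 0.05, -0.38, 0.45 and 0.46 in monocytes, and at 1.67, 1.72, 1.5, 0.09, 1.75 and 1.65 in macrophages. All dendritic cell values lay above those of the other classes, and pool 2 hashtag 3 had the lowest value in all 3. The mean difference was 2.33 over monocytes and 1.09 over macrophages, higher in 6 of 6 samples for both (exact permutation, adjusted p = 0.0481). All tags that passed on this scale share that value, which depends on how many of the 20 tests reach the smallest p. A pass is therefore not separate evidence for each tag. On log2 tag counts relative to all tag UMIs, no tag passed in either comparison. There MHCII was higher by 3.52 over monocytes and by 1.11 over macrophages (exact permutation, adjusted p = 0.0521 for both).

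CD45, the common leukocyte antigen, was higher in dendritic cells in 6 of 6 samples on the centred ratio, by 0.40 over monocytes and by 0.42 over macrophages. By median tag UMIs, dendritic cells lay below macrophages in pool 1 hashtag 4 (852 against 1376.5) and in pool 2 hashtag 5 (905 against 1082). The same held in pool 2 hashtag 6 (1149.5 against 1485), and they lay above in the other samples. CD74 was higher by 0.26 over monocytes in 6 of 6 samples, but lower by 0.45 on log2 raw tag counts, which passed as well (exact permutation, adjusted p = 0.0481 for both), and without pairing within samples the difference did not pass (adjusted p = 0.374). On the centred ratio its difference of 0.24 over macrophages, in 5 of 6, did not pass (exact permutation, adjusted p = 0.0781). Ly6C, whose RNA helped to choose monocytes, was at 1.82 ± 0.67 in dendritic cells and 3.19 ± 0.63 in monocytes (SD, n = 6 each), so that its difference of -1.37 is partly set by that choice. Gr-1, an antibody against Ly6G that also binds Ly6C, was lower by 1.13 and CD52 by 0.64 than in monocytes, in 6 of 6 samples each. Against macrophages Ly6C differed by -0.05 with 3 samples on each side. Gr-1 was lower than in macrophages in 6 of 6 samples. Its gap was widest in pool 1 hashtag 5 (0.14 against 0.77) and narrowest in pool 1 hashtag 4 (0.27 against 0.40).

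The PD-L1 tag set dendritic cells apart from macrophages. It was at -0.66, -0.92, -0.66, -0.29, 0.19 and 0.36 in dendritic cells and at 0.55, 0.38, 0.50, 0.36, 0.55 and 0.77 in macrophages, a mean difference of -0.85, lower in 6 of 6 samples (exact permutation, adjusted p = 0.0481). On log2 tag counts relative to all tag UMIs, the PD-L1 tag was lower by 1.62 and did not pass (exact permutation, adjusted p = 0.0521). On the centred ratio the 3 dendritic cell samples of pool 1 were lower than the 3 of pool 2. Against monocytes, at -0.39 ± 0.16 on average, the difference was 0.06 with 3 samples higher and 3 lower; on log2 raw tag counts the PD-L1 tag was lower by 0.74, and without pool 2 its centred difference was -0.25. CD11b, the antigen that all cells were selected for, was lower by 0.42 than in macrophages, and the difference from monocytes of -0.17 did not pass (exact permutation, adjusted p = 0.174). CD49d did not pass in either comparison on this scale. On log2 raw tag counts CD11b was lower than in monocytes by 1.08 and CD49d by 0.65, and both passed (exact permutation, adjusted p = 0.0481). On the centred ratio Tmem119, a microglial protein, was at -2.84 in dendritic cells, -2.96 in monocytes and -2.45 in macrophages. In each sample tested dendritic cells lay above monocytes and below macrophages for it, and the sign against monocytes turned on log2 raw tag counts. Dendritic cells had a median of 6102 tag UMIs per cell, against 12751 in monocytes and 7515 in macrophages. Since the ratio is relative to the other tags, a strong tag such as Ly6C in monocytes lowers all others there; on log2 raw counts CD45 was lower in dendritic cells than in monocytes, by 0.25.

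**Figure D3:**
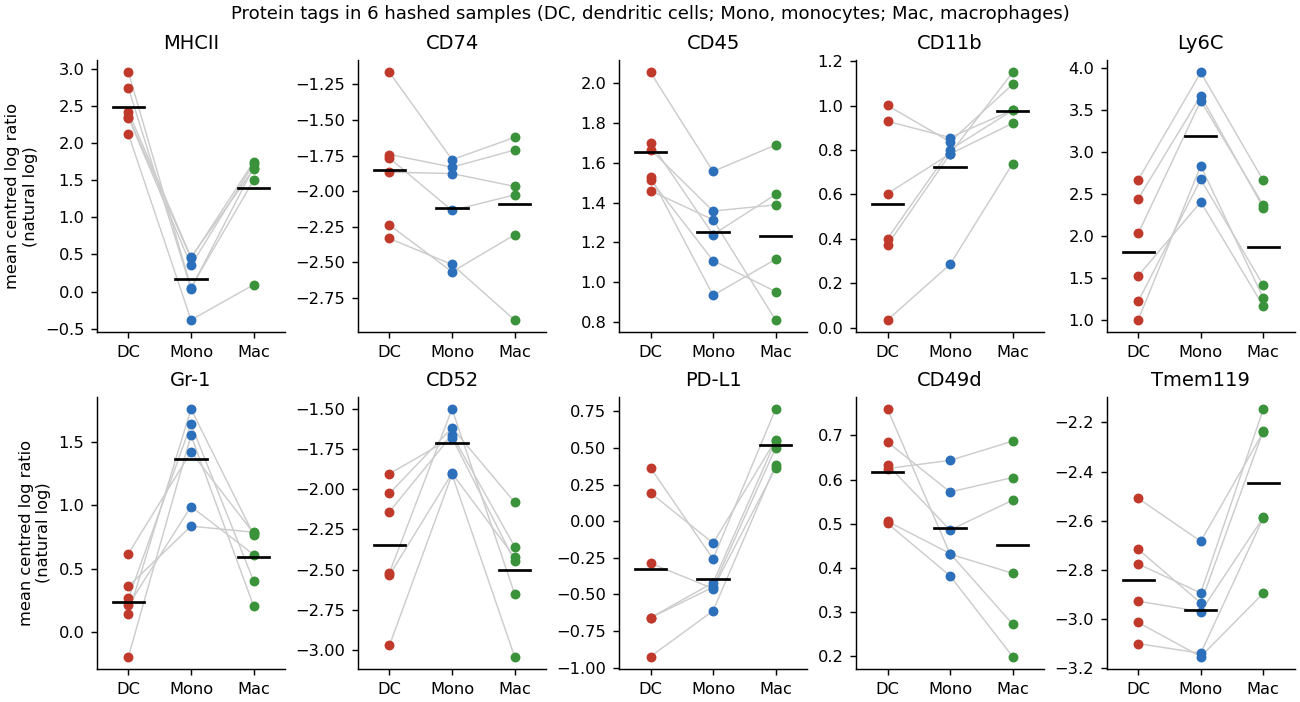
Mean centred log ratio (y axis, natural log) of 10 antibody tags in dendritic cells (DC), monocytes (Mono) and macrophages (Mac) of 6 hashed samples. Points are samples, grey lines join the classes of a sample and black bars are means. MHCII of dendritic cells lies between 2.12 and 2.95, above both other classes, and PD-L1 lies below macrophages in each sample.

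Within the dendritic cells, those with a Flt3 UMI were set against those without, since Flt3 marks the conventional lineage. Of the 158 cells 71 had a Flt3 UMI. Cells without one met the rule by Ccl17, Mgl2 and Cd209a, and these 4 genes got no test. Genes that go with them in single cells are not free of that choice. In pool 2 hashtags 3 and 6 Mgl2 was at 287 and 158 CPM with Flt3 and at 931 and 513 CPM without. It was lower with Flt3 in pool 1 hashtag 5 too, at 310 against 787 CPM, but higher in pool 2 hashtag 5, at 650 against 467 CPM. The part of the choice in the differences below was not tested. Only 2 samples had at least 10 cells of each kind: pool 2 hashtag 3 with 17 cells with and 24 without, and pool 2 hashtag 6 with 13 of each. The median depth was close, at 14394 UMIs with and 14192.5 without Flt3 in the first, and 13973 and 14320 in the second. Of 2956 genes 109 passed the edgeR test (3.69%), 1.22% being higher and 2.47% lower with Flt3; DESeq2 gave 14 genes, and the edgeR test with no replicate block 10. With 4 samples of at least 5 cells each, a limit chosen after the data were seen, 7 of 2569 genes passed, all lower with Flt3.

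Those 7 included genes known from monocytes and macrophages. Cfb, complement factor B, had 0, 17.1, 72.2 and 34.5 CPM in cells with Flt3 and 79.9, 187, 229 and 414 CPM in cells without, in pool 1 hashtag 5 and pool 2 hashtags 3, 5 and 6. Fcgr3, a low-affinity Fc receptor, had 198, 85.5, 165 and 158 CPM with Flt3 and 388, 358, 355 and 507 CPM without. In each of the 4 samples the cells with Flt3 were lower for both genes. The log2 changes over the 4 samples were -2.93 for Cfb and -1.51 for Fcgr3 (edgeR adjusted p = 0.0073 and 0.016). Cd14, the lipopolysaccharide co-receptor, changed by -2.19, Sgk1, a stress-induced kinase, by -2.37, Capg, an actin-capping protein, by -1.94, and Cstb, cystatin B, by -1.22. In the 2 larger samples alone Fcgr3, Capg and Cstb did not pass with DESeq2 or with no replicate block.

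In the 2 larger samples alone, 13 of 20 tested genes of the macrophage list were lower with Flt3 by the edgeR test, 7 by DESeq2 and 5 with no replicate block, and with 4 samples 2 of 16 were lower. C1qa was at 34.2 and 78.8 CPM with Flt3 and at 642 and 2143 CPM without; pool 1 hashtag 5 had 734 CPM with and 1369 CPM without. F10, coagulation factor X, had 0 UMIs with Flt3 and 76 without, which makes it at least 20.3-fold lower, taking 3 counts over both samples as the floor. Itgae stood at 107 and 276 CPM with Flt3 and 48.3 and 57.0 CPM without (log2 change 1.77 ± 0.36), and Btla at 103 and 68.9 CPM with Flt3 and 22.7 and 31.1 CPM without (1.80 ± 0.50). Neither gene passed with DESeq2, with no replicate block or with 4 samples (edgeR adjusted p = 0.058 for Itgae and 0.43 for Btla), and in pool 2 hashtag 5 Btla was at 61.9 CPM with Flt3 and 65.3 CPM without. Ifit3 was higher with Flt3 in both, at 556 and 374 CPM against 341 and 51.8 CPM, but lower in pool 1 hashtag 5, at 254 CPM against 787 CPM. With 2 samples the sign permutation of the tags cannot go below p = 0.5.

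**Figure D4:**
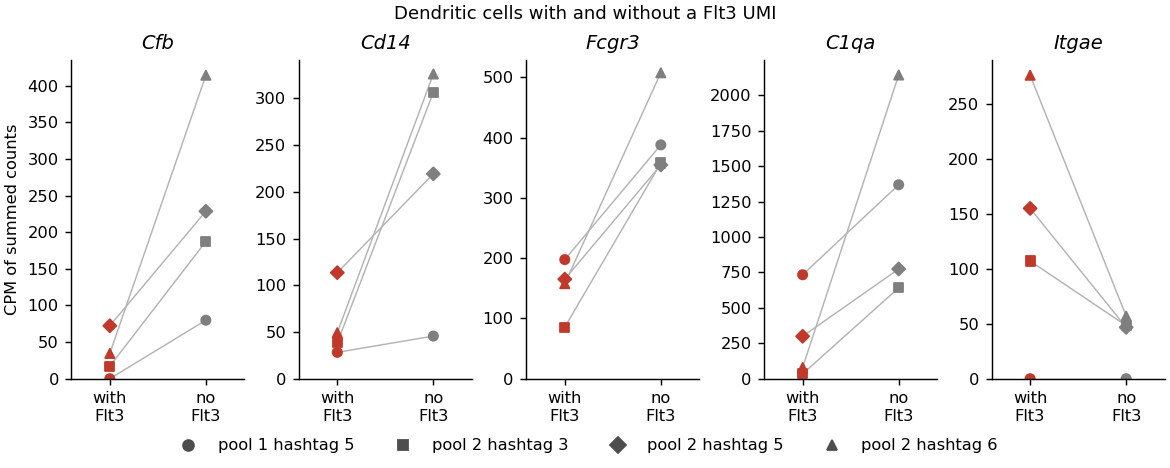
Summed level in CPM (y axis) of 5 genes in dendritic cells with a Flt3 UMI (red, left) and without one (grey, right), in 4 hashed samples with at least 5 cells of each kind, joined by lines. Cfb, Cd14, Fcgr3 and C1qa are lower with Flt3 in every sample shown, and Itgae is higher in the 3 samples of pool 2 and at 0 on both sides in pool 1 hashtag 5.

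Across the 10 hashed samples with at least 5 dendritic cells, class II and core dendritic cell RNA varied little and several other groups varied more; these are descriptions with no test. The summed class II list lay between 60741 and 84077 CPM over these 10 samples, and the core list between 3790 and 5588 CPM. Pool 2 hashtag 2 stood apart in several ways: its border macrophage list was at 2353 CPM, against 174 to 624.5 CPM in the others, and its microglia list at 1848 CPM, against 259 to 504 CPM. Its MHCII tag was at 1.04, against 2.12 to 2.95 in the others, and its CD45 tag at 0.57, against 1.46 to 2.05. Whether its 6 cells hold RNA of other cells was not tested. The interferon list was lowest in pool 2 hashtags 1 and 2, at 2453 and 2296 CPM, and between 7530 and 16995 CPM in the other 8. Those 2 samples, with 6 dendritic cells each, also had 11 and 0 CPM of Cxcl9 and 22 and 37 CPM of Cxcl10, chemokines induced by interferon gamma, and were highest for Cd209a, at 1446 and 1979 CPM, and for Mgl2, at 1435 and 1270 CPM. In pool 1 Cxcl9 stood between 873 and 2399 CPM and Cxcl10 between 1966 and 4427 CPM. Pool 3 hashtag 4 had 404 CPM of Ifit3 but 135 CPM of Cxcl9 and 27 CPM of Cxcl10.

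The choosing genes themselves changed places between samples. Ccl17 was highest in hashtags 3, 5 and 6 of pool 2, at 1167, 977 and 626 CPM, and in pool 3 hashtag 4, at 565 CPM, and lay between 19 and 338 CPM elsewhere. Cd209a was lowest in the same 4 samples, at 348, 138, 260 and 13 CPM, and at 499 CPM or more elsewhere. The rule takes a cell on any 2 of these genes, so that a sample can hold different pairings. Itgae, which the rule did not use, was at 72, 80, 169 and 283 CPM in those 4 samples, at 29 CPM in pool 1 hashtag 4 and at 0 in the other 5, which had between 5 and 15 dendritic cells each. Kmo was highest in the same 4 samples too, at 172, 180, 162 and 215 CPM, against 22 to 109 CPM elsewhere. The macrophage list stood apart in pool 2 hashtag 2, at 24701 CPM, and pool 1 hashtag 6, at 14481 CPM, and was between 2024 and 6651 CPM in the others. Genes induced by enzymatic dissociation of tissue also peaked in pool 2 hashtag 2, at 27184 CPM, against 6867 to 15409 CPM elsewhere; their part in these levels was not tested.

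**Figure D5:**
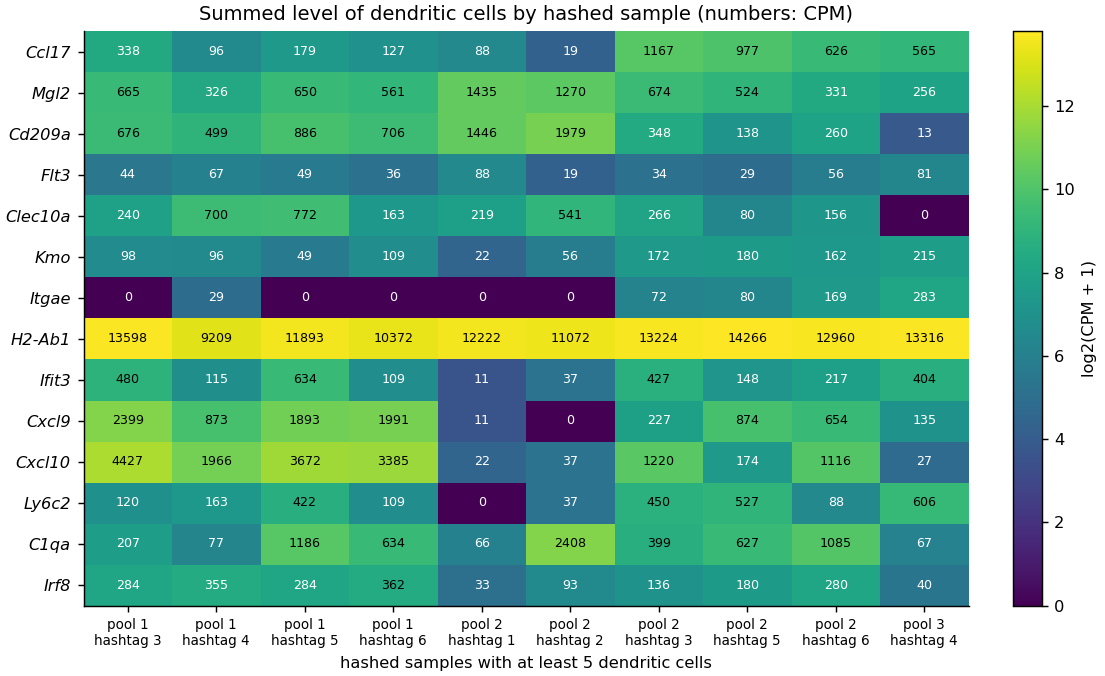
Summed level of 14 genes in the dendritic cells of 10 hashed samples; numbers are CPM and the colour is log2(CPM + 1). H2-Ab1 stays between 9209 and 14266 CPM, whereas Cxcl9 and Cxcl10 are lowest in pool 2 hashtags 1 and 2, with 0 to 37 CPM, along with pool 3 hashtag 4 for Cxcl10.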

How the data were processed

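CITE-seq RNA and antibody tags of CD11b+ brain cells were deposited by the authors as UMI counts per gene or tag and cell barcode, not normalized. Per the file headers pool 1 was written by Cell Ranger 3.1.0 and pools 2 and 3 by Cell Ranger 4.0.0; build mm10, bcl2fastq 2.20.0.422, Seurat 3 and Cell Ranger 4.0.0 and 3.0.1 are listed in the submitters' processing notes. Cells were taken by the UMI, mitochondrial and hashtag limits given above, over 30406 genes found in all pools. No doublet caller was run: the hashtag limit removes cells of 2 samples, not 2 cells of 1 sample, and dropping dendritic cells over 20000 UMIs was an alternative.

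RNA was summed per hashed sample and class, and tested with edgeR 4.0.16 in R 4.3.3 (TMM scaling, filterByExpr, quasi-likelihood F test, Benjamini-Hochberg over the genes tested, without the 19 genes used to choose cells). The test was checked on simulated counts. Both classes of a comparison come from the same hashed sample, so samples pair the classes by design and the sample is the block in the model. Tags were tested in Python 3.11.15 with numpy 2.4.6 and scipy 1.17.1. Whether hashed samples are single animals is not stated, so p-values measure the spread between these samples only.

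The cell rule, the lists and the comparisons were chosen with earlier results of these data known. Named genes are members of the 25 lists and the 10 genes with the largest change in each direction among those that passed, had a mean log2 CPM of at least 5 and changed the same way in every sample; 1 gene of the lists is counted but not reported here. Alternatives were other scaling, DESeq2 1.42.0, no filter, no block, leaving out each pool, other cell limits, and other scales of the tags. Shares have exact Clopper-Pearson intervals; a level of 0 was given the limit that 3 counts allow.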

Additional observations from a re-analysis of the deposited data

Results flagged for a closer look

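In all, 167 differences between dendritic cells and a second class were examined, each within 6 samples. Genes were taken as log2(CPM + 1) and antibody tags as the mean centred log ratio. Of these differences 9, all of genes, had 1 sample far from the other 5 by Dixon's test at the 95% level. Chance alone sets about 1 in 20 apart. Against monocytes, Bcl11a was at -3.81 in pool 1 hashtag 3, where dendritic cells had no UMI of it, and at 1.38 to 3.22 in the others. In pool 1 hashtag 4, with 10 dendritic cells, 3 genes stood lower than elsewhere: Ass1 at -1.36 (others -0.83 to -0.55), Ctss at -1.33 (others -0.94 to -0.82) and H2-K1 at -1.11 (others -0.52 to -0.24). Gpr183 was at -1.03 in pool 1 hashtag 5 and at 0.95 to 1.96 in the others. In pool 2 hashtag 3, the only sample where dendritic cells held an Arg2 UMI, Arg2 was at -3.38 (others -6.54 to -5.73), and Ctsb was at -2.60 there (others -1.92 to -1.72). Against macrophages, Ifitm1 was at 10.36 in pool 2 hashtag 3, where the macrophages had no UMI of it (others 4.13 to 6.27). Spp1 was at 3.56 in pool 1 hashtag 3 and at -8.44 to -4.37 in the others, so that its direction turned in that sample.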

How the results depend on the processing

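Pool 3 entered no RNA test. Without 1 pool the count of genes that passed ran from 756 of 5731 to 1816 of 5548 against monocytes. Against macrophages it ran from 304 of 1651 to 1046 of 5135, so that the number tested moved as well. Both counts were lowest without pool 2. Without pool 2 core dendritic cell genes still rose in 14 of 21 and 8 of 13 tested, and class II genes in 9 of 11 and 5 of 9. Without the low-count filter 1560 of 14417 genes passed against macrophages. The replicate block, which pairs the classes of a hashed sample, could be dropped with 1600 and 805 genes passing. The count of the Flt3 comparison, 109, moved under several settings. It was 14 with DESeq2, 10 with no replicate block, 7 in 4 samples of at least 5 cells and 29 at a hashtag limit of 90%. Without cells over 20000 UMIs it was 55, and with at least 6 choosing UMIs 12. That comparison could not be fitted without pool 2 or at 20 cells. Both its samples lie in pool 2, so leaving out pool 1 or pool 3 reran the same data, with 109 again. Of 84 genes followed against monocytes 69 kept their direction and their call, passed or not, in every alternative that tested them. The same held for 52 of 63 against macrophages and for 2 of 23 in the Flt3 comparison. Cxcl10 turned to -0.15 against macrophages at 20 cells. The tags that passed, 7 and 6, became 0 and 0 per 1000 tag UMIs, at 20 cells and at 6 choosing UMIs, 0 to 7 and 0 to 6 without 1 pool, and 2 against macrophages with no replicate block; with 3 or 5 samples the adjusted p cannot pass. On log2 raw tag counts signs against monocytes turned for CD45 (-0.25), PD-L1 (-0.74), CD49d (-0.65), CD74 (-0.45) and Tmem119 (-0.66), per 1000 tag UMIs for CD11b (0.0269), and without 1 pool for CD11b (-0.354 to 0.0191) and PD-L1 (-0.25 to 0.379), both turning without pool 2; per 1000 against macrophages they turned for CD49d (-0.21), CD74 (-0.11) and CD52 (-0.17). The share of dendritic cells was 0.893% at a hashtag limit of 90%, 0.179% after thinning to 2000 UMIs, and 0.414% to 1.03% without 1 pool. The cause of these shifts was not tested.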

Other observations

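A CCR2 tag was read in pools 2 and 3 only. In hashtags 3, 5 and 6 of pool 2 its centred log ratio was -1.90, -1.54 and -1.54 in dendritic cells, -1.85, -1.26 and -1.68 in monocytes and -1.44, -1.29 and -1.08 in macrophages. It was lowest in dendritic cells in 2 of the 3 samples against monocytes and in all 3 against macrophages, whereas Ccr2 RNA was lower than in monocytes in each sample.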
